A study of Mus musculus with 6 samples.

Results

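The 10 genes described here encode glycoproteins, proteoglycans and a crosslinking enzyme of the extracellular matrix: Fn1, Thbs1, Thbs2, Postn, Tnc, Sparc, Fbn1, Lox, Bgn and Dcn. They were taken by symbol from the 46983 genes of the deposited count table, as a list chosen with earlier results of these data known. All 10 were among the 14450 genes kept by the low-count filter. Polyadenylated RNA was sequenced from C2C12 cells, a wild-type mouse myoblast line that fuses into multinucleated myotubes in low serum. Per the labels, the myotubes had been differentiated for up to 7 days in 2% horse serum, at a passage below 7. Of the 6 cultures, described as independent biological replicates, 3 then received corticosterone at 1e-07 M for 24 h, and 3 received ethanol vehicle at 1 µL/mL for 24 h. The libraries are called CORT 1 to CORT 3 and VEH 1 to VEH 3 after their labels throughout. The question was which genes differ between the treatments.

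Cells anchor themselves in a matrix of fibrils and adhesive glycoproteins that they secrete. Fibronectin forms early fibrils on which collagens are laid down, fibrillins form microfibrils, and lysyl oxidase links collagen and elastin chains covalently. Thrombospondins, tenascin C, periostin and SPARC are matricellular proteins, which alter adhesion and fibril assembly more than they bear load. Biglycan and decorin are small leucine-rich proteoglycans that bind collagen fibrils and TGF-beta. Glucocorticoids are known for changing matrix gene expression in fibroblasts, and in muscle they are known chiefly for their effect on protein breakdown.

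The libraries held 23877583 to 29928653 counts. Fkbp5, a co-chaperone gene that the glucocorticoid receptor induces, stood at 151, 36.9 and 135 CPM (counts relative to library depth, adjusted by TMM factors) in CORT 1, CORT 2 and CORT 3, against 36.9, 177 and 35.4 CPM in VEH 1, VEH 2 and VEH 3. CORT 2 and VEH 2 thus went against their labels for this gene. Whether these 2 libraries were exchanged was not tested, and if so every difference by label below would have another meaning. They did so too for 2 other glucocorticoid-induced genes: Tsc22d3 was 218 to 264 CPM in CORT 1, CORT 3 and VEH 2, against 65.1 to 76.2 CPM in the other 3 libraries, and Per1 was 76.0 to 88.9 CPM against 31.6 to 36.4 CPM. Each library was compared with every other over all tested genes outside the 10. The nearest library of CORT 1 was VEH 3, that of CORT 2 was CORT 3 and that of VEH 1 was VEH 2, and each of these relations was mutual. The root mean square log2 difference within these pairs was 0.36, 0.40 and 0.36, and the next nearest library lay 0.45 to 0.48 away. Each pair holds 1 library with high and 1 with low Fkbp5. The values below are therefore read by label and also within these pairs. The pairs, and the division into CORT 1, CORT 3 and VEH 2 against the other 3, come from measured values and not from the labels, so they are described without a test. Of 14 myotube markers tested, Acta1 was the most abundant, and the summed level was 20763 to 24784 CPM in libraries labelled corticosterone and 16769 to 22375 CPM in those labelled vehicle. By label 11 differences were positive and 3 negative. In every pair 9 markers were higher in the library with high Fkbp5 and 1 was lower, beside 20.0% and 20.5% of all genes. Their sum was 24784 CPM in CORT 1 against 22375 CPM in VEH 3. It was 21300 CPM in CORT 3 against 20763 CPM in CORT 2, and 18534 CPM in VEH 2 against 16769 CPM in VEH 1. Its part in the matrix gene values was not tested.

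Promoter sequences are shown for the 2 members whose patterns lay farthest apart, Postn and Tnc, because they ran in opposite directions within every nearest pair. The RefSeq promoter table (GRCm38.p6) held 6 of the 10 genes (Fbn1, Postn, Tnc, Sparc, Thbs2 and Bgn), with 2 start sites each for Postn and Tnc. The 250 bases before the start site nearer to the GENCODE gene start are given 5′ to 3′ on the strand of the gene, with the letters TATAAA in capitals. The Postn window lies at chr3:54360857-54361106 on the plus strand and the Tnc window at chr4:64047016-64047265 on the minus strand.
Postn: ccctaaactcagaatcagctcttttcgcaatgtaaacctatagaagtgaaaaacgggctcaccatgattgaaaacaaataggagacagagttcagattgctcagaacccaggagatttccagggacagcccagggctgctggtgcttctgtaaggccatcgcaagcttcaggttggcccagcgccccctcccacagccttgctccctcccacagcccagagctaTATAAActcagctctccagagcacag
Tnc: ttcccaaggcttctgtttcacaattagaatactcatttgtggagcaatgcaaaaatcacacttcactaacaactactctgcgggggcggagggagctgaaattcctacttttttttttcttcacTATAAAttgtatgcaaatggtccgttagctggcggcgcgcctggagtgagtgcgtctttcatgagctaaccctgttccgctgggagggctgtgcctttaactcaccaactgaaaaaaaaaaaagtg
TATAAA began 26 bases before the start in Postn and 126 bases before it in Tnc. On either strand, these letters were found in 12.4% of the 32851 promoters of the table, and in 4 of the 8 member promoters, which are those of 3 genes (Postn, Thbs2 and Tnc), since the Tnc windows overlap and hold the same letters. That motif was chosen after the sequences were seen, and only its exact letters were searched. The Tnc window not shown also holds tatataa near its start site, which this search does not match. ACANNNTGT, the core of the glucocorticoid receptor element, was in 5.84% of all promoters, CATTCC, read by TEAD factors, in 12.6%, and TGANTCA, read by AP-1, in 6.75%. Each was searched on both strands, and 0 of the 8 member promoters held any of these 3 motifs in this window.

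By label, none of the 10 genes separated the treatments. edgeR's quasi-likelihood test called 0 of 10 members, beside 0 of 14450 genes tested (0%), with adjusted p from 0.4 to 0.935 over the members. DESeq2 also called 0 of 10 (0.955% of all genes), as did limma-voom, and 1 member had an unadjusted p under 0.05 (11.8% of all genes). The difference was positive in 7 members and negative in 3, and 50.8% of all genes tested were positive. The members' median log2 difference, corticosterone minus vehicle, was 0.17, beside 0.0040 over all genes. This median was -0.074 without CORT 2 and -0.0071 without CORT 2 and VEH 2. In none of the members were the 3 libraries of a label all above those of the other, which was so for 16.6% of all genes (8.41% higher and 8.19% lower).

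**Figure D1:**
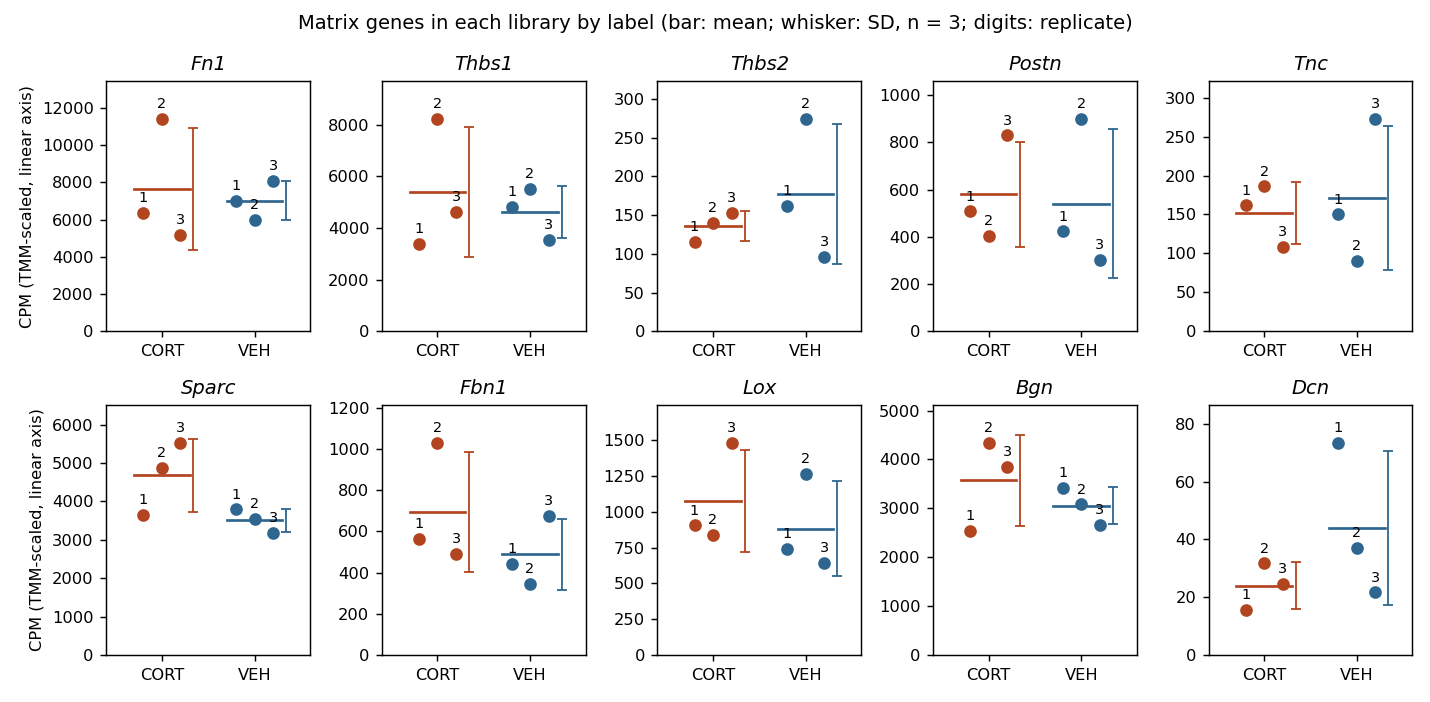
TMM-scaled CPM of each of the 10 matrix genes (linear vertical axes from 0) in the libraries labelled corticosterone (CORT, left) and vehicle (VEH, right). Points are libraries with their replicate number, bars the means and whiskers the SD (n = 3). The labels overlap for every gene, and CORT 2 is the highest library for Fn1, Thbs1, Fbn1 and Bgn.

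Most of the members varied widely between libraries, Bgn and Sparc least. The highest library was 1.71 to 4.70 times the lowest, with a median of 2.65, where the median over all genes tested was 1.39 (log2 CPM with a prior count of 2). The ratio reached 2 or more in 8 members, and in 19.7% of all genes. Together the 10 genes took 1.80, 3.07 and 2.19% of the counts in CORT 1, CORT 2 and CORT 3, against 2.16, 2.14 and 1.95% in VEH 1, VEH 2 and VEH 3. CORT 2 thus had the largest share and CORT 1 the smallest. Per kilobase of exon, the mean level over the 6 libraries was highest for Sparc (1081 CPM per kb), then Thbs1 (825), Fn1 (627) and Bgn (543). Lox (205), Postn (64.4), Fbn1 (48.7), Thbs2 (22.4), Tnc (20.8) and Dcn (5.82) followed on the same scale. Between genes next to each other in this order, the ranges over the libraries overlapped, with the exceptions of Bgn over Lox and Lox over Postn. In these bulk cultures, fewer cells of a type and less RNA per cell cannot be told apart.

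Fn1 encodes fibronectin, the adhesive glycoprotein on which matrix fibrils assemble (ENSMUSG00000026193, GRCm38 chromosome 1, 71585520 to 71653200, minus strand, 45 merged exons). It stood at 6367, 11394 and 5171 CPM in CORT 1, CORT 2 and CORT 3, against 6986, 5973 and 8069 CPM in VEH 1, VEH 2 and VEH 3. CORT 2 was the highest, and the other 5 libraries lay between 5171 and 8069 CPM. By label the log2 difference was 0.13 ± 0.29 (SE, edgeR adjusted p = 0.876), and it was -0.28 without CORT 2. Within the nearest pairs Fn1 was lower in the library with high Fkbp5 each time: by -0.34 in CORT 1 minus VEH 3, -1.14 in CORT 3 minus CORT 2 and -0.23 in VEH 2 minus VEH 1 on the log2 scale. CORT 1, CORT 3 and VEH 2 spanned 5171 to 6367 CPM and the other 3 libraries 6986 to 11394 CPM, without overlap.

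Fbn1 encodes fibrillin-1, the backbone of microfibrils (ENSMUSG00000027204, chromosome 2, 125300594 to 125507993, minus strand). Its levels were 564, 1030 and 489 CPM in CORT 1, CORT 2 and CORT 3, against 441, 346 and 677 CPM in VEH 1, VEH 2 and VEH 3. CORT 2 was again highest and VEH 2 lowest. The difference by label was 0.51 ± 0.33 (edgeR adjusted p = 0.562), and -0.087 without CORT 2 and VEH 2. Within pairs it lay in the direction of Fn1, at -0.26, -1.07 and -0.35 in the order given for that gene, but the 3 libraries with high Fkbp5 overlapped the others, since CORT 1 (564 CPM) was above VEH 1 (441 CPM). The exons of Fbn1 share 2442 bases with Gm9913 on the opposite strand, and reads there cannot be assigned to either gene if the counting ignored strand. The exons of Fn1, Thbs1, Tnc and Lox share 30 to 292 bases with annotated genes on the opposite strand, and those of the other 5 members share none.

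Thrombospondins are secreted glycoproteins that bind matrix proteins and cells, and thrombospondin 1 also activates latent TGF-beta. Thbs1 (ENSMUSG00000040152, chromosome 2, 118111876 to 118127133, plus strand) gave 3373, 8210 and 4606 CPM in CORT 1, CORT 2 and CORT 3, against 4829, 5519 and 3539 CPM in VEH 1, VEH 2 and VEH 3. Thbs2 (ENSMUSG00000023885, chromosome 17, 14665500 to 14694235, minus strand) gave 115, 140 and 153 CPM against 162, 274 and 95.6 CPM in the same order. The highest library was thus CORT 2 for Thbs1 and VEH 2 for Thbs2, while both were low in CORT 1 and VEH 3. The ratio of Thbs1 to Thbs2 CPM was 29.2, 58.6 and 30.2 in CORT 1, CORT 2 and CORT 3, against 29.8, 20.1 and 37.0 in VEH 1, VEH 2 and VEH 3, so that CORT 2 and VEH 2 were its extremes. By label Thbs1 differed by 0.22 ± 0.32 (edgeR adjusted p = 0.796) and Thbs2 by -0.38 ± 0.33 (adjusted p = 0.656). Thbs1 turned to -0.21 without CORT 2, and Thbs2 to 0.075 without VEH 2. Within pairs Thbs1 was mixed in sign (-0.069, -0.83 and 0.19), and Thbs2 was positive in all (0.27, 0.12 and 0.76).

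Periostin and tenascin C bind each other and fibronectin in provisional and healing matrix, yet their genes ran in opposite directions here. Postn (ENSMUSG00000027750, chromosome 3, 54361109 to 54391037, plus strand) stood at 507, 402 and 830 CPM in CORT 1, CORT 2 and CORT 3, against 423, 898 and 300 CPM in VEH 1, VEH 2 and VEH 3. The highest libraries were VEH 2 and CORT 3, and CORT 1, CORT 3 and VEH 2 (507 to 898 CPM) did not overlap the rest (300 to 423 CPM). Within pairs Postn was higher by 0.76 in CORT 1 minus VEH 3, 1.04 in CORT 3 minus CORT 2 and 1.09 in VEH 2 minus VEH 1, which are 1.69, 2.06 and 2.12 times. Tnc (ENSMUSG00000028364, chromosome 4, 63959785 to 64047015, minus strand) stood at 162, 186 and 108 CPM in CORT 1, CORT 2 and CORT 3, against 150, 90.4 and 272 CPM in VEH 1, VEH 2 and VEH 3. VEH 3 was highest and VEH 2 lowest. The within-pair differences of Tnc were close to each other, at -0.75, -0.79 and -0.73, or 0.593, 0.580 and 0.602 times. Its 3 libraries with high Fkbp5 still overlapped the others, because CORT 1 (162 CPM) was above VEH 1 (150 CPM). The ratio of Postn to Tnc CPM was 3.14, 2.16 and 7.70 in CORT 1, CORT 2 and CORT 3, against 2.82, 9.94 and 1.10 in VEH 1, VEH 2 and VEH 3. By label neither differed, at 0.10 ± 0.42 for Postn and -0.17 ± 0.38 for Tnc (edgeR adjusted p = 0.935 and 0.872). Without CORT 3, VEH 1 or VEH 3 the sign turned for Postn (-0.25, -0.057 and -0.20), and without CORT 3 or VEH 3 it turned for Tnc (0.024 and 0.33).

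Lox encodes lysyl oxidase, which crosslinks collagen and elastin (ENSMUSG00000024529, chromosome 18, 52516067 to 52529867, minus strand). It stood at 905, 841 and 1482 CPM in CORT 1, CORT 2 and CORT 3, against 740, 1264 and 643 CPM in VEH 1, VEH 2 and VEH 3. CORT 3 and VEH 2 were highest, as for Postn, and the libraries with high Fkbp5 (905 to 1482 CPM) did not overlap the rest (643 to 841 CPM). Lox was higher by 0.49, 0.82 and 0.77 within the pairs CORT 1 minus VEH 3, CORT 3 minus CORT 2 and VEH 2 minus VEH 1. The ratio of Postn to Lox CPM stayed between 0.467 (VEH 3) and 0.711 (VEH 2), a narrower range than that of either gene. By label Lox differed by 0.29 ± 0.30 (edgeR adjusted p = 0.706), and by -0.015 without CORT 3. Without CORT 2 and VEH 2 it differed by 0.79 and Postn by 0.89 (adjusted p = 0.724 for each), with 2 libraries a label.

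**Figure D2:**
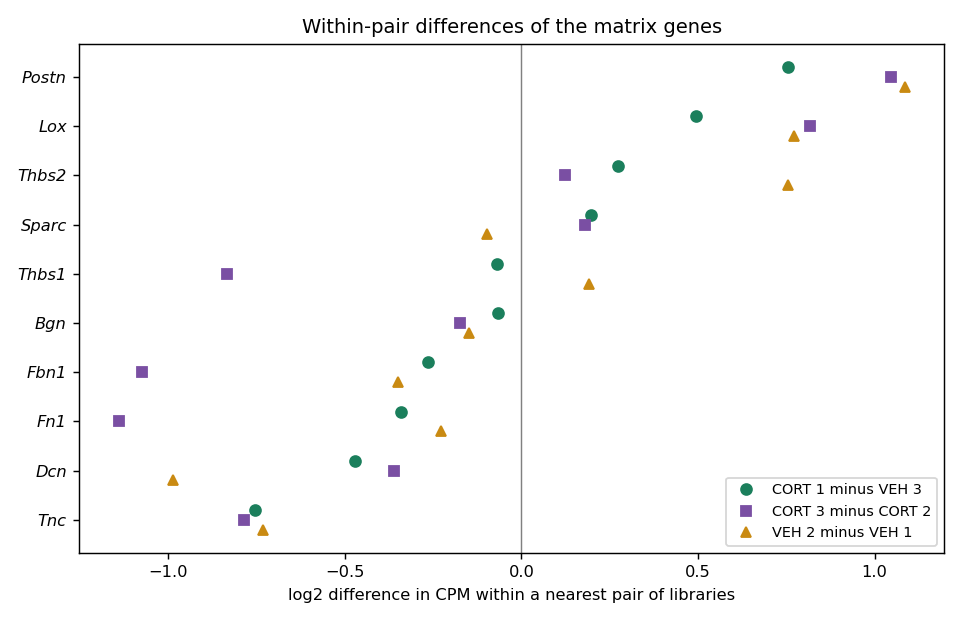
log2 difference in CPM (horizontal axis, prior count 2) of each matrix gene within the 3 nearest pairs of libraries, with the library of higher Fkbp5 minus the other. Postn and Lox lie right of 0 in every pair, Tnc lies between -0.79 and -0.73, and the CORT 3 minus CORT 2 values of Fn1, Fbn1 and Thbs1 (-1.14, -1.07 and -0.83) lie well left of their other pairs.

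Sparc encodes a secreted calcium-binding glycoprotein that binds collagen (ENSMUSG00000018593, chromosome 11, 55394500 to 55423183, minus strand). It was the member nearest to a difference by label. Sparc stood at 3654, 4877 and 5524 CPM in CORT 1, CORT 2 and CORT 3, against 3791, 3545 and 3189 CPM in VEH 1, VEH 2 and VEH 3. CORT 2 and CORT 3 were above all libraries labelled vehicle, and CORT 1 was below VEH 1. The means were 4685 ± 950 against 3508 ± 303 CPM (SD, n = 3 each), a log2 difference of 0.42 ± 0.16 (SE, edgeR unadjusted p = 0.0362, adjusted p = 0.4, and adjusted p = 0.21 by DESeq2). With 1 library left out the difference was 0.28 to 0.57. Most of its variation, 91.3%, lay between the 3 nearest pairs, and within them it differed by 0.20, 0.18 and -0.097. The median of this share was 65.9% over all genes tested.

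Biglycan and decorin are related proteoglycans. Bgn (ENSMUSG00000031375, chromosome X, 73483602 to 73495933, plus strand) gave 2542, 4340 and 3847 CPM in CORT 1, CORT 2 and CORT 3, against 3413, 3082 and 2659 CPM in VEH 1, VEH 2 and VEH 3. Dcn (ENSMUSG00000019929, chromosome 10, 97479609 to 97518143, plus strand) gave 15.6, 31.7 and 24.7 CPM against 73.4, 37.1 and 21.6 CPM in the same order, from 446 to 1878 counts. Bgn was highest in CORT 2 and CORT 3, and Dcn in VEH 1 and VEH 2. Dcn had the widest range of the members, and the ratio of Bgn to Dcn CPM was 163, 137 and 156 in CORT 1, CORT 2 and CORT 3, against 46.5, 83.2 and 123 in VEH 1, VEH 2 and VEH 3. These ratios did not overlap between the labels, as was so for the levels of 16.6% of all genes. The lowest ratios were those of VEH 1 and VEH 2, which form a nearest pair. Bgn and Dcn were set side by side after their values were seen. The difference by label was 0.23 ± 0.20 for Bgn and -0.88 ± 0.44 for Dcn (edgeR adjusted p = 0.66 and 0.463). Without VEH 1 it was -0.30 for Dcn. Of the variation of Bgn and Dcn, 93.8% and 77.6% lay between the nearest pairs. Within them Bgn differed little (-0.065, -0.17 and -0.15), and Dcn was lower in the library with high Fkbp5 each time (-0.47, -0.36 and -0.98).

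**Figure D3:**
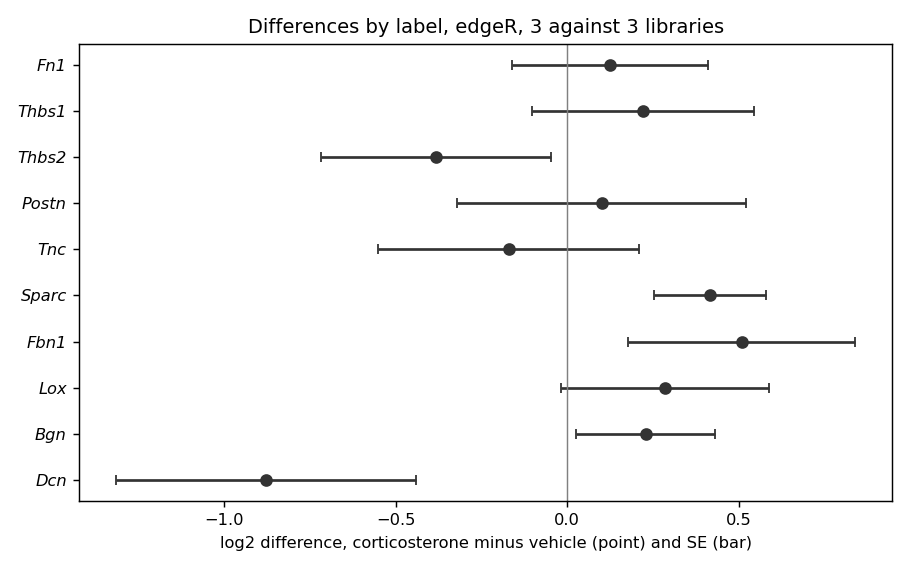
log2 difference, corticosterone minus vehicle, of each matrix gene (horizontal axis) with its SE as a bar, from edgeR on 3 libraries per label. Sparc (0.42 ± 0.16) lies farthest from 0 in units of its SE and Dcn has the largest negative value (-0.88 ± 0.44).

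Across the 3 nearest pairs, all differences had 1 sign in 8 of 10 members, 3 positive (Postn, Lox and Thbs2) and 5 negative (Tnc, Fn1, Fbn1, Dcn and Bgn). This was so for 40.5% of all genes tested, 20.0% positive and 20.5% negative. With each difference also at least 0.5 in size, 2 members were left, Postn and Tnc, beside 1.94% of all genes. In 3 members the libraries with high Fkbp5 did not overlap the rest, Postn and Lox above and Fn1 below, beside 9.63% of all genes (4.89% above and 4.74% below). The size of the within-pair differences had a median over the members of 0.31 in CORT 1 minus VEH 3, 0.80 in CORT 3 minus CORT 2 and 0.54 in VEH 2 minus VEH 1. Over all genes the medians were 0.13, 0.16 and 0.12. Under 4 scalings none of the 30 within-pair differences of the members changed sign. The scalings could hardly change one, since the all-gene median within a pair stayed within 0.026 of 0. The member difference nearest to 0 was -0.065 (Bgn, CORT 1 minus VEH 3).

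**Figure D4:**
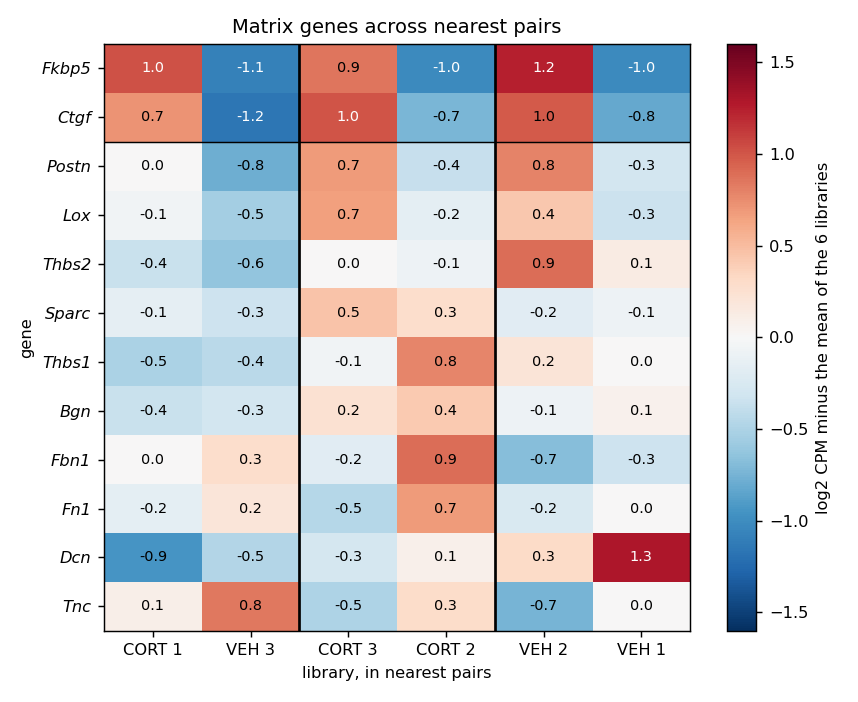
log2 CPM of Fkbp5, Ctgf and the 10 matrix genes (rows), each minus its mean over the 6 libraries (colour and printed value), with the libraries in nearest pairs, the one with higher Fkbp5 on the left of each. Postn and Lox are higher on the left of every pair and Tnc lower, while the pair CORT 3 and CORT 2 is high for Sparc and the pair VEH 2 and VEH 1 is high for Dcn.

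Among the members, Sparc and Bgn had the most similar patterns, with a root mean square difference of 0.16 between their centred log2 CPM over the 6 libraries. Postn and Lox (0.20), Thbs1 and Bgn (0.24) and Fn1 and Fbn1 (0.27) followed, and Postn and Tnc lay farthest apart (1.07). Of 4626 other genes with a mean of at least 50 CPM, the most similar to Bgn was Pdgfrb, a PDGF receptor gene (0.052), and to Sparc C1qtnf3 (0.079). The solute carrier gene Slc5a3 was nearest to both Lox (0.10) and Postn (0.14), Bmper to Thbs2 (0.11), the Notch receptor gene Notch3 to Tnc (0.13) and Ltbp2, a latent TGF-beta binding protein gene, to Fn1 (0.14). For Fbn1 it was Zfp36l1 (0.18), for Thbs1 Man2b1 (0.19) and for Dcn Hsd11b1, which encodes an enzyme that regenerates active glucocorticoid (0.27). Hsd11b1 stood at 34.2, 71.0 and 56.6 CPM in CORT 1, CORT 2 and CORT 3, against 108, 91.0 and 35.9 CPM in VEH 1, VEH 2 and VEH 3. With 6 libraries in 3 pairs, other genes can share these patterns, and how many lie about as near was not counted.

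The edgeR test called none of 3 lists of other matrix genes, and DESeq2 called 1 gene in them, Vcan (0 of 31, 1 of 17 and 0 of 23). Of the other matrix glycoproteins, 0 of 31 tested passed the edgeR test over all genes, with 23 differences positive and 8 negative by label, a median of 0.15 and 4 at an unadjusted p under 0.05. The most abundant, the osteopontin gene Spp1, gave 1838, 2751 and 1896 CPM in CORT 1, CORT 2 and CORT 3, against 2993, 2138 and 2827 CPM in VEH 1, VEH 2 and VEH 3. Npnt, which encodes nephronectin, differed by 0.052 ± 0.21. Of the other proteoglycans, 0 of 17 passed, 11 positive and 6 negative, with a median of 0.37 and 4 at an unadjusted p under 0.05. Gpc1, a glypican gene, differed by -0.13 ± 0.10 and Ogn, which encodes osteoglycin, by 0.45 ± 0.36. Among crosslinking and assembly enzymes 0 of 23 passed, 16 positive and 7 negative, with a median of 0.16 and 3 at an unadjusted p under 0.05. Serpinh1, the collagen chaperone gene, stood at 867, 1048 and 1048 CPM in CORT 1, CORT 2 and CORT 3, against 937, 784 and 876 CPM in VEH 1, VEH 2 and VEH 3. Pcolce, whose product enhances procollagen cleavage, differed by 0.30 ± 0.20. The labels did not overlap for 4 of 31, 1 of 17 and 2 of 23 genes of these lists, beside 16.6% of all genes. Over all genes tested, 50.8% of the differences were positive and their median was 0.0040. An unadjusted edgeR p under 0.05 was found for 11.8% of all genes, and DESeq2 called 0.955%.

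Markers of other cells that the cultures could hold were read beside these values. All 10 markers of cycling myoblasts were tested, and all 10 differences by label were negative. edgeR called 0 (0% of all genes), with 7 at an unadjusted p under 0.05 (11.8% of all genes). DESeq2 called 2, Top2a and Ccna2 (0.955% of all genes). The labels did not overlap for 7 of the 10 (16.6% of all genes). Within the nearest pairs 7 were negative throughout and 0 positive, beside 20.5% and 20.0% of all genes. The summed level of the 10 markers was 202 to 232 CPM in libraries labelled corticosterone and 262 to 287 CPM in those labelled vehicle, lower under the corticosterone label without overlap. Of 11 fibroblast markers 9 were tested, summing to 1149, 1096 and 1491 CPM in CORT 1, CORT 2 and CORT 3, against 1153, 1373 and 876 CPM in VEH 1, VEH 2 and VEH 3. CORT 3 and VEH 2 were highest and VEH 3 lowest in this sum, as for Postn and Lox, but Gsn made up most of it (1069 CPM in CORT 3) and the list was divided. Within the nearest pairs 3 of its 9 genes were positive throughout and 3 negative. Cd248 was lower in CORT 1, CORT 3 and VEH 2 (14.3 to 15.9 CPM) than in the rest (17.0 to 18.5 CPM). Gsn was higher in those libraries without overlap. These were 1 gene of 9 in each direction, beside 4.74% of all genes lower and 4.89% higher. Pdgfra stood at 19.7 to 39.5 CPM, Thy1 was under the count filter and Tcf21 had no count. Of 7 reserve cell and myoblast markers 6 were tested, at 451 to 476 CPM against 437 to 547 CPM. Of 7 adipocyte markers 2 were tested, summing to 4.83 to 6.32 CPM against 5.51 to 6.93 CPM, and Adipoq, Cidec, Lep and Cfd had no count. The part of these cells in the matrix gene values was not tested.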

How the data were processed

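The deposited values are unnormalised read counts, 1 column a library. Per the submitters' processing notes, the tools included DESeq2 1.24.0, HTSeq 0.6.1 and HISAT2 2.0.5, with mm10 as the build. For the annotation release, the strand setting and any filter, nothing is given in the sources used here. Coordinates and merged exon lengths are from GENCODE M21 (GRCm38), which matched 98.9% of gene identifiers. No column was left unmapped.

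Corticosterone was compared with vehicle with edgeR 4.0.16 (R 4.3.3), quasi-likelihood F-test, TMM scaling, filterByExpr, no block, two-sided, with Benjamini-Hochberg adjustment over the 14450 genes tested and a threshold of 0.05. SE is the size of the log2 difference divided by the square root of F. The fit was also run on simulated counts. These had independent libraries with true labels, so the run says nothing about the near pairs or about CORT 2 and VEH 2. DESeq2 1.42.0 and limma-voom 3.58.1 were alternatives, with 3 other scalings, 2 other filters, a replicate block and left-out libraries. Within-pair differences use log2 CPM with a prior count of 2.

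The members, lists and pairs were chosen with earlier results of these data known. All members were named. From each of the 3 other matrix lists the 2 most abundant genes were named where none was called, and for each member its nearest gene. Promoter letters were searched in the 250 bases before each start site.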

Additional observations from a re-analysis of the deposited data

How the results depend on the processing

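No member was called under any alternative run: the smallest adjusted p was 0.21 with other tools, scalings, filters, the block or without CORT 2 and VEH 2, and 0.14 with 1 library left out. Over all genes the count of calls was 138 with DESeq2, 3 without CORT 2 and VEH 2, and 0 to 29 with 1 library left out (29 without CORT 1 and 11 without VEH 3). The members' median log2 difference was -0.074 to 0.32 with 1 library left out, and -0.0071 without CORT 2 and VEH 2.

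Single genes turned sign with 1 library left out in Fn1 (-0.28 to 0.34), Thbs1 (-0.21 to 0.47), Thbs2 (-0.69 to 0.075), Postn (-0.25 to 0.68), Tnc (-0.48 to 0.33) and Lox (-0.015 to 0.64). Without CORT 2 and VEH 2, 4 turned: Fn1 (-0.38), Thbs1 (-0.069), Thbs2 (0.055) and Fbn1 (-0.087), while Dcn (-1.24), Postn (0.89), Lox (0.79) and Tnc (-0.65) lay farther from 0 than with all libraries. Fbn1 ran from 0.11 to 0.81 with 1 library left out. The cause was not tested. The other 86 of 90 member values under the 9 remaining alternatives kept their direction and stayed short of the threshold.

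Same-numbered libraries of the labels did not deviate together (correlations of their deviations -0.15, -0.27 and -0.32), and 0 of 6 libraries correlated best with its own number. With replicate number as a block, 0 genes and 0 members were called, and the median was 0.17.

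Depth limits these genes little, since the lowest count of a member was 446.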

Other observations

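Several other matrix genes also set CORT 1, CORT 3 and VEH 2 apart from the rest without overlap, as a description of libraries that were divided on Fkbp5 and similar genes. They were named after their values were seen. Of the other matrix glycoproteins 4 were higher in these libraries (Fbln1, Ltbp1, Ctgf and Matn2) and 3 lower (Ltbp2, Ltbp3 and Spp1), of 31 tested, beside 4.89% and 4.74% of all genes. Ctgf, which encodes connective tissue growth factor, a matricellular protein, stood at 481, 177 and 591 CPM in CORT 1, CORT 2 and CORT 3, against 167, 577 and 131 CPM in VEH 1, VEH 2 and VEH 3. Fbln1, which encodes fibulin-1, gave 57.1, 37.9 and 136 CPM against 49.6, 133 and 26.0 CPM in the same order. By label Ctgf differed by 0.51 ± 0.62 on the log2 scale (SE, edgeR adjusted p = 0.748).

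Of 17 other proteoglycans, Omd and Prg4 were higher in those 3 libraries, beside 4.89% of all genes. The syndecan genes Sdc1 and Sdc2, which encode cell surface proteoglycans, were lower, beside 4.74% of all genes. Sdc2 stood at 602, 907 and 659 CPM in CORT 1, CORT 2 and CORT 3, against 1011, 671 and 751 CPM in VEH 1, VEH 2 and VEH 3. Among 23 enzymes P4ha2 and Tll1 were higher and Loxl1, a relative of Lox, was lower. With these same shares of all genes, counts of 2 and 1 do not set the enzyme list apart. Loxl1 had a narrow range, with 268, 287 and 268 CPM in CORT 1 to CORT 3, against 278, 248 and 280 CPM in VEH 1 to VEH 3. By label, Vcan, which encodes the large proteoglycan versican, did not overlap, at 134, 173 and 172 CPM against 97.1, 85.9 and 118 CPM (log2 difference 0.67 ± 0.15, edgeR adjusted p = 0.364, and adjusted p = 0.0129 by DESeq2, which called it).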
